A study of Homo sapiens with 2 samples.

Results

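Peaks of RNA precipitated with CRTC2 over input RNA were examined for 9 genes whose proteins set the phosphorylation of CRTC coactivators. These are the salt-inducible kinases SIK1, SIK2 and SIK3, their upstream kinase LKB1 (gene STK11), the catalytic subunits of AMPK (PRKAA1 and PRKAA2), and the calcineurin subunits PPP3CA, PPP3CB and PPP3R1. A peak counted for a gene if its exon or intron annotation named that gene, and otherwise if the gene was the assigned one. By this rule 183 of 175546 deposited peaks belonged to the 9 genes, and each gene had at least 6. The study used HCCLM3, an established hepatocellular carcinoma cell line labelled wild type, with 1 library of RNA recovered by CRTC2 immunoprecipitation (RIP) and 1 library of input RNA. The labels give no treatment, neither library has a replicate, and no precipitation with a control antibody was analysed here. The stated purpose was to find RNAs bound by CRTC2, in work on its condensates with the m6A reader YTHDF2.

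CRTC2 is a coactivator of the transcription factor CREB and is held in the cytoplasm while it is phosphorylated and bound by 14-3-3 proteins. The salt-inducible kinases and AMPK phosphorylate CRTC proteins, and LKB1 switches on both kinase groups by phosphorylating their activation loops. Calcineurin, a calcium-dependent phosphatase made of a catalytic A subunit and a regulatory B subunit, removes these phosphates and lets CRTC proteins enter the nucleus. In liver this switch is known for its part in fasting glucose production. The values below concern the transcripts of these genes, not the activity of their proteins.

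CREB, the partner of CRTC2, binds the cAMP response element TGACGTCA and its core TGACG, which on the other strand reads CGTCA. The core lies within the full element, so the searches overlap. RefSeq promoter windows (GRCh38.p14, 250 bases before to 50 after the start) were found for 7 members, all but PPP3CA and PPP3CB, and both motifs were searched on both strands. The full element was in 0 of 7 windows, against 1.98% of 27305 windows of all genes. The core was in 5 of 7, against 25.0% of all windows; PRKAA1 and PRKAA2 had none. A match is a description of letters and not evidence of binding. For the kinase genes that had a core, the stretch with the core closest to the start is shown. Each is on the strand of its gene, with cores in capitals. The SIK1 window lies at the RefSeq position of that gene, while its peaks by the rule lie in another copy, described below.

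SIK1 (chr21:43427246-43427275): gctctggCGTCAaagcgaCGTCAatgggcg
SIK2 (chr11:111602383-111602412): ggcccccTGACGtcggcgcaCGTCAgcggc
SIK3 (chr11:117098483-117098512): ccccgagTGACGtccgcggccccccctttc
STK11 (chr19:1205639-1205668): ctccaatCGTCAgcggcggcggggcgggca

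In these stretches SIK1 and SIK2 carried a pair of cores each, and SIK3 and STK11 a single core. PPP3R1, the remaining gene with a match, had a core at the far end of its window and another after the start.

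The transcripts of all 9 genes had at least 1 exonic peak, meaning a peak in an exon or UTR, as had 67.7% of 19480 genes with any peak. Their enrichment was low. The median fold of the 183 peaks was 1.89 (95% order-statistic interval 1.86 to 1.92), and that of all peaks in the list was also 1.89. This interval treats the peaks of a gene as independent, and it does not measure spread between libraries. Of the 183 peaks, 1 (0.546%), in PPP3R1, had a q of at most 0.05 (the p-value adjusted by the caller over its tests), against 1.63% of all peaks. Another 2 (1.09%), in PRKAA1 and SIK3, were at least 4-fold, against 1.63% of all peaks. Counted by gene, 1 of 9 members reached the q limit and 2 of 9 the fold limit, against 11.3% and 11.3% of genes with a peak. The members had more peaks per gene than the list as a whole, a median of 17 against 5, so they had more chances to pass a limit than a typical gene. Each of these 3 peaks lay in an exon but was assigned in the list to a neighbouring gene (PNO1, TTC33 and APOA1). With the assigned gene used in place of the exon's gene, 0 members reached either limit.

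Each fold is the authors' value at the summit of a peak, a linear ratio of RIP over control with a pseudocount. The control was taken to be the input library, the only other library of the series, which the labels do not state. From this fold and the deposited p-value, the RIP fragments at each summit and the input level around it were solved for. A common input level in the list, 0.634, was taken as the weight of 1 input fragment, so 1.27 was read as 2. This weight was inferred from the values and is not stated in the labels. The lowest input level in the list was 0.0298. The range in brackets after a fold is a 95% exact Poisson interval for its RIP fragments, with the input level held fixed. Such intervals cover counting error only and leave out the error of the input, and peaks were selected for being high. Over the members' peaks the median was 1 RIP fragment at the summit, and 55.2% rested on 1 fragment, against 46.2% of all peaks.

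**Figure D1:**
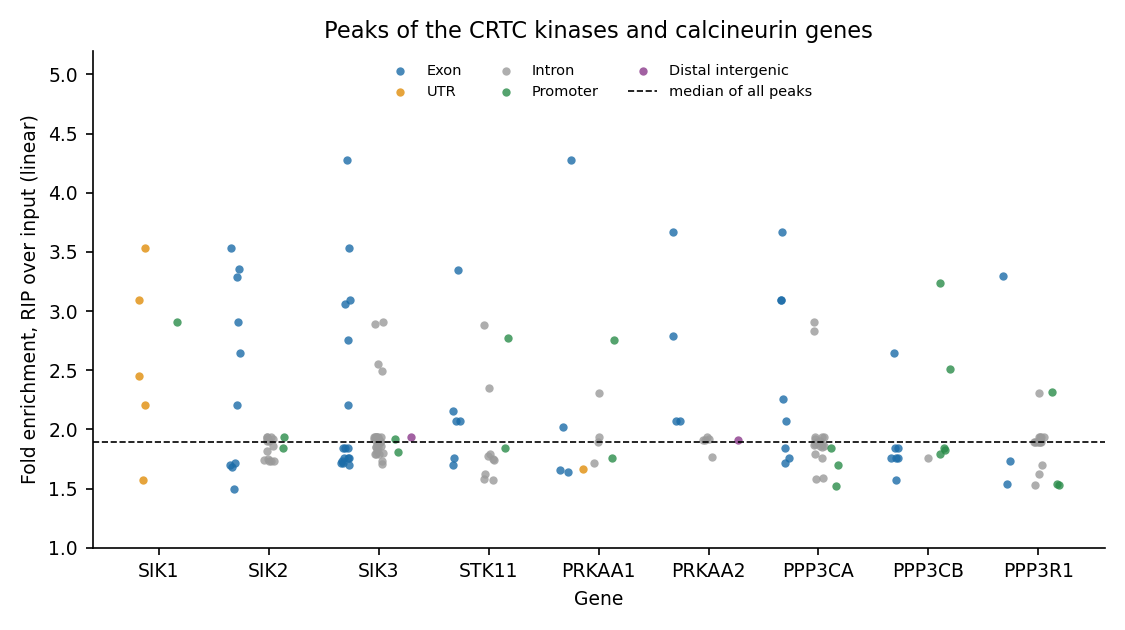
Fold enrichment (linear axis) of each of the 183 peaks by gene, coloured by annotation class and spread sideways for legibility; the dashed line is the median of all peaks, 1.89. Most intron peaks lie close to that line, and the highest points, at 4.28, are exon peaks of SIK3 and PRKAA1.

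SIK3 had the most peaks of the 9 genes, 50, of which 16 lay in exons and 31 in introns. SIK3 is a salt-inducible kinase and phosphorylates CRTC proteins. Its exon peaks fell in 13 of the 25 exons of its main annotated transcript, from exon 5 to exon 23. The highest, 4.28-fold (1.96 to 8.61), lay in exon 18 (hg38 chr11:116861826-116861883) and rested on 6 RIP fragments against 1 input fragment. A peak in exon 21 of another SIK3 transcript reached 3.53 (1.68 to 6.80) on 7 fragments against 2. The peaks of exons 14 and 17 stood at 3.09 and 2.76, and a peak in exon 14 of a further transcript at 3.06. The other exon peaks of SIK3 lay between 1.70 and 2.21, and none of its 50 peaks reached q of 0.05.

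SIK2, a salt-inducible kinase that phosphorylates CRTC2, had 26 peaks, 10 of them in exons and 14 in introns. Exon peaks fell in 10 of 15 exons, and 3 of them had a fold above 3. The highest, in exon 10 (chr11:111719816-111720027), had a fold of 3.53 (1.48 to 7.95) on 4 fragments at an input level of 0.414. The peak of exon 5 (chr11:111701003-111701037) rested on more, with 13 RIP fragments against 5 input fragments and a fold of 3.36 (1.90 to 5.57). The peaks of exons 11, 7 and 12 stood at 3.29, 2.91 and 2.65. The exon 5 peak had the narrower interval of the pair, and its q was 0.128.

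SIK1, itself a known target gene of CREB, had 6 peaks by the rule, all in a copy of the gene at chromosome 21, 6111131 to 6123778, and 5 of them in its 3′ UTR. The highest reached 3.53 (1.68 to 6.80) from 7 RIP fragments against 2 (chr21:6122633-6122860), and the others in the 3′ UTR stood at 3.09, 2.45, 2.21 and 1.57. The gene lies in a duplicated sequence of this genome build, and the deposited list and the RefSeq table name the copies in opposite ways. RefSeq places SIK1 at 43414483 to 43427131 and the identifier 102724428 at the other position, and the list does the reverse. It also gives every exon peak at both positions to 102724428, so the rule found no exon peak of SIK1.

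Both SIK1 copies carried peaks. The copy that the list names SIK1 had 12 peaks, 5 in exons and 5 in the 3′ UTR, with 32 RIP fragments summed over exonic summits. The other copy had 12, 7 in exons and 4 in the 3′ UTR, with 24 fragments. Their highest exonic folds were 3.69 in exon 6 at the former and 3.71 in exon 10 at the latter, and their median exonic folds were 2.33 and 2.07. Which copy a read came from, and how reads that match both were counted, is not given in the sources used here, so the SIK1 values are of uncertain origin.

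STK11, which encodes LKB1, had 17 peaks, 6 in exons and 9 in introns. The exon peaks fell in exons 3, 5, 6, 7, 8 and 9 of 10, next to each other from exon 5 on. Exon 3 (chr19:1219346-1219437) had the highest fold, 3.35 (1.36 to 8.18), on 3 fragments at an input level of 0.194. Exons 7, 6 and 8 stood at 2.16, 2.07 and 2.07 and held 8, 5 and 5 fragments. The highest STK11 fold thus rested on fewer fragments than these 3 lower ones, and with at least 5 fragments required the highest was 2.16.

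PRKAA1, the gene of AMPK alpha-1, had 11 peaks, 4 in exons and 1 classed as 5′ UTR, 53.4% along the gene's span. The highest, in exon 5 of 9 (chr5:40769408-40769488), reached 4.28 (1.96 to 8.61), from 6 RIP fragments and 1 input fragment. Summits in exons 7 and 9 held more RIP fragments, 10, 8 and 10, but also more input, 7, 7 and 9 fragments, and their folds were 2.02, 1.66 and 1.64. The exonic summit of PRKAA1 with the fewest RIP fragments thus had the highest fold. The value of 4.28 was shared with SIK3, since both peaks had the same 6 and 1 fragments, as had 426 peaks in the list.

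A peak of 31 bp at the start of PRKAA1 (chr5:40798130-40798160) lay wholly in the promoter window. It held 14 RIP fragments against 7 input fragments, with a fold of 2.76 (1.59 to 4.51) and a q of 0.452. It had more fragments than any exonic summit of this gene. The sequence under it, all but 1 base, is shown on the strand of the gene; every base lies under the peak, so none is in capitals.

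PRKAA1 start (chr5:40798130-40798159): gcgacagccgagaagcagaaacacgacggg

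PRKAA2, the gene of AMPK alpha-2, had 10 peaks, 4 in exons, 5 in introns and 1 outside the gene. Exon peaks fell in exons 5, 6, 7 and 8 of 9, a run of neighbouring exons. Exon 6 (chr1:56695933-56696189) reached 3.67 (1.61 to 7.75) from 5 RIP fragments against 1. Exon 5 stood at 2.79 on 2 fragments, and exons 7 and 8 at 2.07 on 5 fragments against 3. The peak outside the gene, listed 25849 bp before its start, held 30 RIP fragments against 24, the most at any of the 183 summits, with a fold of 1.91 (1.31 to 2.70). The nearest start site is the only link of that peak to PRKAA2.

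PPP3CA, the gene of the main calcineurin A subunit, had 29 peaks, 8 in exons and 18 in introns. Exon peaks fell in exons 2, 3, 4, 5, 7, 8, 9 and 12 of 14. Exon 2 (chr4:101195936-101196078) had the highest fold, 3.67 (1.61 to 7.75), on 5 RIP fragments against 1. Exons 5 and 12 followed at 3.09 each, on 6 fragments against 2, and exon 9 at 2.26. The remaining exon peaks of PPP3CA lay between 1.72 and 2.07.

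PPP3CB, the gene of another calcineurin A subunit, had 13 peaks, 7 in exons and 5 in the promoter class, which takes every peak within 3000 bp of a start site. Its highest exon peak was the lowest among the 8 genes with exon peaks. Exon 10 of 14 (chr10:73454394-73454430) reached 2.65 (1.16 to 5.59) from 5 RIP fragments against 2, and the other 6 lay between 1.57 and 1.84 on 1 to 3 fragments. Its highest peak of any class, at 3.24 (1.31 to 7.90) on 3 fragments, lay 1664 bp before the start and outside the transcript. All 5 promoter-class peaks lay within the span of the antisense gene PPP3CB-AS1, and the list gives no strand, although the library kit keeps it. The exon peaks of PPP3CB lay outside that span.

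PPP3R1, the gene of the calcineurin B subunit, which binds calcium, held the only peak of the 9 genes at q of at most 0.05. It lay in exon 4 of 6 (chr2:68187229-68187273), with a q of 0.0235, and its 3.30-fold enrichment (2.05 to 5.05) came from 19 RIP fragments against 8 input fragments. The neighbouring exons 3 and 5 also had peaks, with folds of 1.54 (0.97 to 2.33) and 1.73 (1.02 to 2.79). Their summits held 20 and 15 RIP fragments, close to the 19 of exon 4, but 20 and 13 input fragments. Across these exons of PPP3R1 the RIP fragments were thus alike, and the lower input in exon 4 went with its higher fold. The fold of 3.30 was the lowest but 1 among the genes' highest exonic peaks, while its interval was the narrowest because it rested on the most fragments.

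**Figure D2:**
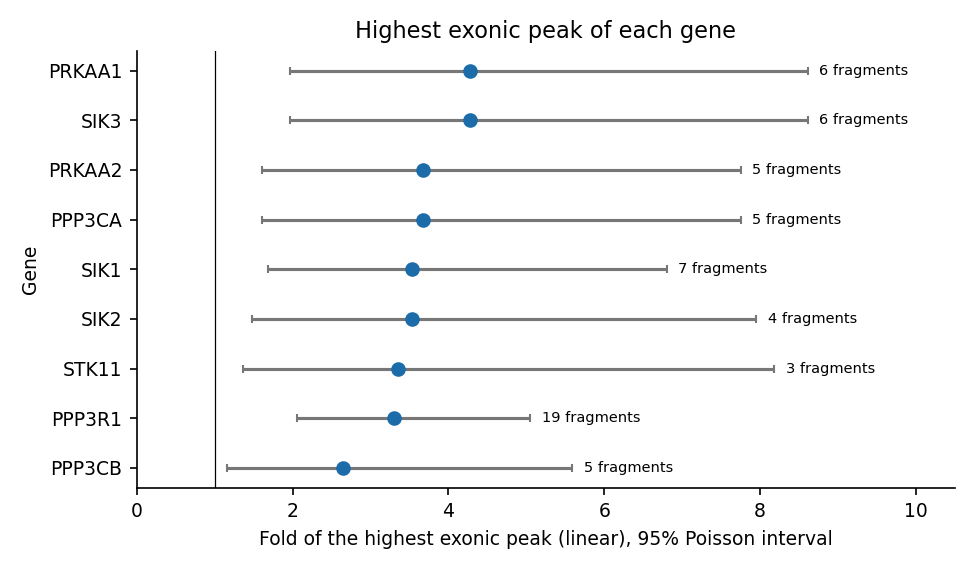
Fold (linear axis) of the highest exonic peak of each gene, with its exact Poisson 95% interval and the RIP fragments at its summit; the vertical line marks a fold of 1. Folds ran from 2.65 in PPP3CB to 4.28 in PRKAA1 and SIK3, every interval overlapped every other, and PPP3R1 had the narrowest with 19 fragments.

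Ordered by their highest exonic peak, the genes ran from PRKAA1 and SIK3 (4.28 each) over PRKAA2 and PPP3CA (3.67 each), SIK2 and SIK1 (3.53 each), STK11 (3.35) and PPP3R1 (3.30) to PPP3CB (2.65). The intervals of all 36 pairs of genes overlapped. Overlap is not a test of a difference, and each value is the highest of several peaks, so the order of the genes was not tested. With the assigned gene used for every peak, the highest peak of any class fell to 1.94 in SIK2, 2.76 in PRKAA1, 1.91 in PRKAA2 and 1.84 in PPP3CA. It also fell to 2.91 in SIK3 and 2.32 in PPP3R1. All exon peaks of these genes were assigned to other genes. Those of PPP3CB were too, but its highest peak, of the promoter class, stayed at 3.24. STK11 stayed at 3.35, and SIK1 rose to 3.69. By the rule first described, the median of the members' highest exonic folds was 3.53, against 2.82 over all genes with an exonic peak. The members also had more exonic peaks per gene, a median of 6 against 4. The kinase genes and the calcineurin genes had median exonic folds of 2.07 and 1.84 over 46 and 18 peaks. Exonic peaks made up 38.3% (29.6 to 47.6) of 120 kinase peaks and 28.6% (17.9 to 41.3) of 63 calcineurin peaks (Clopper-Pearson 95% intervals, which treat peaks of a gene as independent), and these intervals overlapped. Peaks at or above 4-fold were found in the kinase genes and the peak at q of at most 0.05 in a calcineurin gene, and a difference between the groups was not tested.

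Exonic summits of the 9 genes held few fragments, with a median of 5 from the RIP library and at most 20, against a median of 3 over all exonic peaks. Of the 64 exonic peaks 7.81% rested on 1 fragment, against 20.0% of all exonic peaks. The input level was a whole number of fragments (within 0.01 of one) at 54 of the 64 (84.4%, against 58.9% in the whole list), and 12 of these stood against 1 input fragment and 18 against 2. A fold of at least 3 was found at 16 exonic peaks (25.0%, against 13.1% of all exonic peaks), and 14 of the 16 had an input of at most 2 fragments. The lower interval bound was above 1 for 25 of 64 exonic peaks (39.1%), against 36.3% in the whole list.

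**Figure D3:**
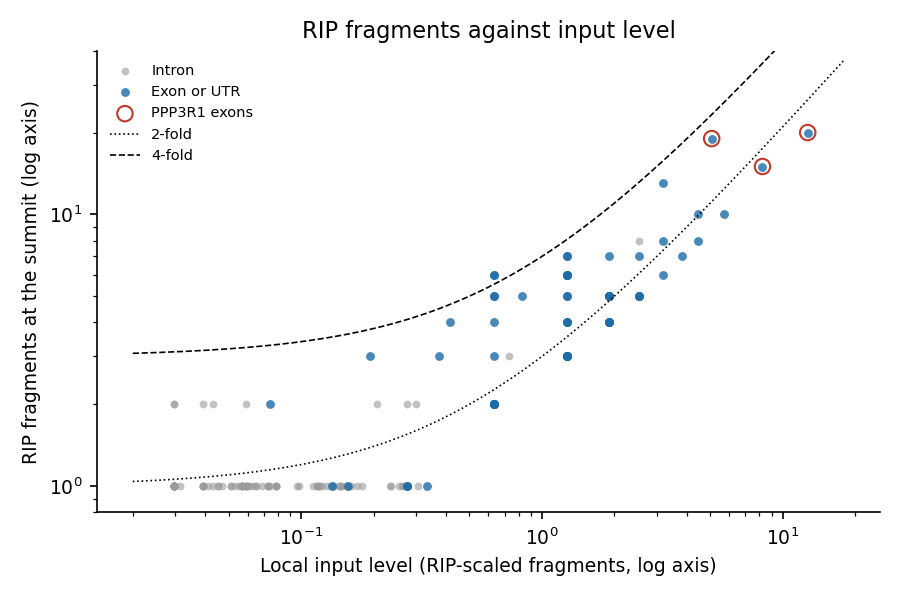
RIP fragments at the summit against local input level, both on log axes, for intron peaks (grey) and exon or UTR peaks (blue) of the 9 genes; curves mark 2-fold and 4-fold and red circles the exons of PPP3R1. Intron peaks gather along the line of 1 fragment, and the exon 4 peak of PPP3R1 lies between the curves at 19 fragments.

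Introns held most of the members' peaks, 97 of 183, or 53.0% (45.5 to 60.4) against 26.6% of all peaks. Their median fold was 1.89, against 1.85 for all intron peaks, and 87 of the 97 (89.7%) rested on 1 RIP fragment, against 85.8% of all. The highest, 2.91, was in SIK3 and PPP3CA. Over peaks of all classes, a fold of 1.94 recurred at 20 peaks in 6 of the genes, the value of 1 fragment at the lowest input level, which 14946 peaks of the list shared. Peaks of any class wider than 10 kb numbered 15 (8.20%, against 9.19% of all peaks) and held at most 2 fragments, the widest spanning 70055 bp of SIK3 intron 1. Introns of SIK3 (31 peaks), PPP3CA (18), PPP3R1 (15) and SIK2 (14) held most of the 97 intron peaks, and PPP3CB had 1.

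Most UTR peaks within these genes were listed under other genes. Apart from SIK1, the deposited list gave 1 UTR peak to a member, a peak of PRKAA1 classed as 5′ UTR. The list assigns UTR peaks to the gene with the nearest start site. In the RefSeq spans of the other members, 44 further UTR peaks in 7 genes were assigned elsewhere, with folds from 1.50 to 3.60, a median fold of 1.94 and a median of 3 RIP fragments. Near the end of PRKAA2 there were 10, assigned to LOC101929935, with the highest at 2.77. The end of PPP3CA held 6, assigned to the microRNA gene MIR8066 and up to 2.97, and that of PPP3CB held 5, assigned to MSS51 and up to 3.06. SIK2 had 5 under PPP2R1B and PPP3R1 3 under PNO1, up to 2.45 and 2.52, and the UTR peaks in the SIK3 span stood under APOA1. In PRKAA1 8 were assigned to TTC33. The highest of all 44, at 3.60 (1.57 to 7.60) on 5 fragments, was 1 of these. It was classed as 5′ UTR but lay 68.4% along the PRKAA1 span, not at its start. STK11 had none. Which transcript these reads came from was not tested.

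Counted by summit position in the RefSeq spans, a choice made after these assignments were seen, the 9 genes held 232 peaks. Exonic peaks then made up 49.1% of them and introns 43.1%. The exonic share of all peaks, 46.3%, is not of a like set. It counts peaks outside genes, such as the 6.09% classed as distal intergenic, which a count within spans leaves out. The counts of peaks at q of at most 0.05 and of at least 4-fold stayed at 1 and 2.

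**Figure D4:**
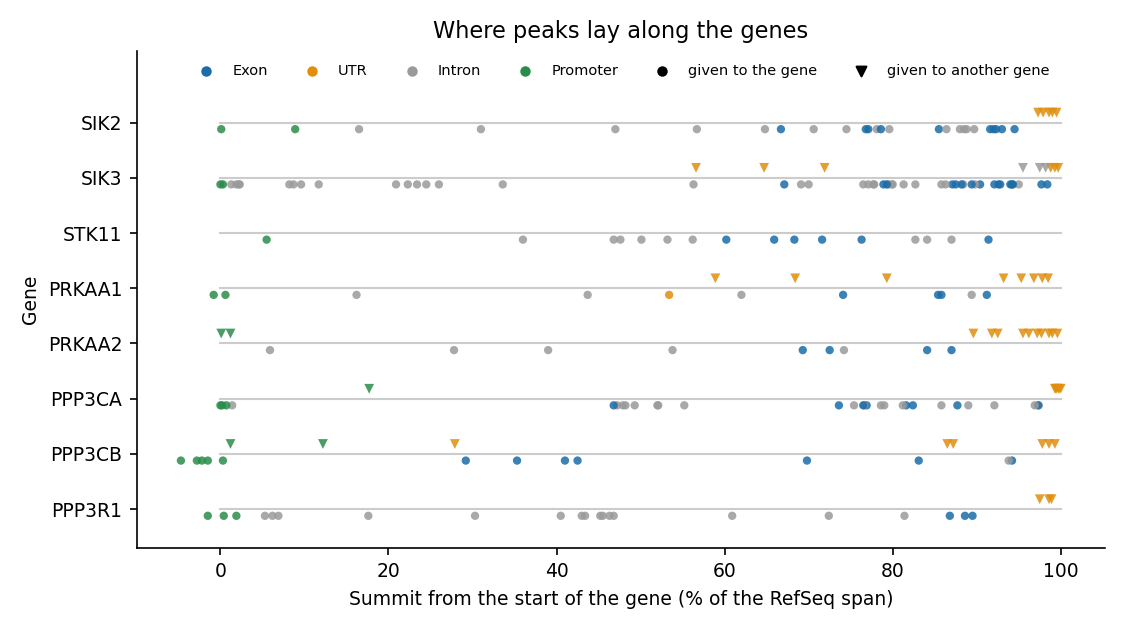
Summits of peaks along 8 of the genes, as percent of the RefSeq span from the gene's start. Circles are peaks that the rule first described gave to the gene, also where the list assigns them to a neighbour. Triangles are peaks inside the span that the rule gave to another gene, and colours mark the class. Most exon peaks lie in the later part of the genes, with PPP3CB the most spread, and most triangles are UTR peaks at the far end. SIK1, whose copies are named in opposite ways, is left out. So are peaks outside the genes classed as distal and a promoter-class peak of STK11, 2650 bp before its start.

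Other genes of the pathway were described by 11 lists of 53 genes. Of these, 44 (83.0%) had an exonic peak and 13 (24.5%) a peak at q of at most 0.05, and 15 (28.3%) reached 4-fold, beside 9, 1 and 2 of the 9 members and the shares of all genes given above. The median of the highest exonic folds was 3.45. Number of peaks and transcript length, which raise such counts, were not matched. Assignment mattered here too. With the assigned gene used for every peak, 11 pathway genes passed the q limit, and 8 where annotated and assigned gene had to agree. Of the peaks named below, those of CRTC3, CABIN1, HDAC4, YWHAB, ULK1, ACACA and ACACB lay outside the transcript assigned to them.

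Around AMPK, the regulatory subunit PRKAG1 had a peak at 4.90 on 7 fragments, but it lay 553 bp before the gene's start. PRKAG2 reached 4.28 without passing the q limit, and PRKAG3 had no peak. CAMKK1, a calcium-dependent kinase that can activate AMPK, reached 4.63 (2.03 to 9.79) in exon 6 of 16. Of AMPK substrates, 4 of 7 passed the q limit. These were the acetyl-CoA carboxylase genes ACACA (4.86, on an alternative contig and more than 10 kb in width) and ACACB (3.85, on 3 fragments), the mTORC1 subunit gene RPTOR (4.64) and the autophagy kinase gene ULK1 (4.71). Around LKB1, no partner passed it, and the pseudokinase STRADA was highest at 3.71 on 3 fragments. Among the AMPK-related kinases, 0 of 9 passed, and MARK4 was highest at 4.28 on 6 fragments.

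On the side of calcineurin, PPP3CC, the remaining catalytic subunit gene, had its highest exonic peak at 3.06. The calcineurin inhibitor gene CABIN1 reached 5.51 (2.73 to 10.26) on 8 fragments in exon 26 of 37 and passed the q limit, while RCAN2 had no peak. Of the NFAT factors, which calcineurin dephosphorylates, none passed the limit. NFATC2 reached 4.25 and NFATC4 had no peak.

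Among the proteins that the same kinases act on or that bind phosphorylated CRTC, CRTC3 reached 6.05 (2.77 to 12.15) in exon 12 of 15 on 6 fragments, the highest value of the 53 genes, and passed the q limit. The histone deacetylase genes HDAC4 (4.40) and HDAC9 (4.91), of the class that SIK proteins phosphorylate, also passed it, as did 3 of 7 genes of 14-3-3 proteins. These were YWHAE (4.85, on an alternative contig), YWHAG (4.64, in an intron, on 4 fragments) and YWHAB, whose fold was 2.74 (1.82 to 3.96) on 26 fragments. The median of the highest exonic folds was 4.46 for the deacetylase genes and 1.91 for the 14-3-3 genes, where YWHAG counts with an exon peak of 1.66.

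**Figure D5:**
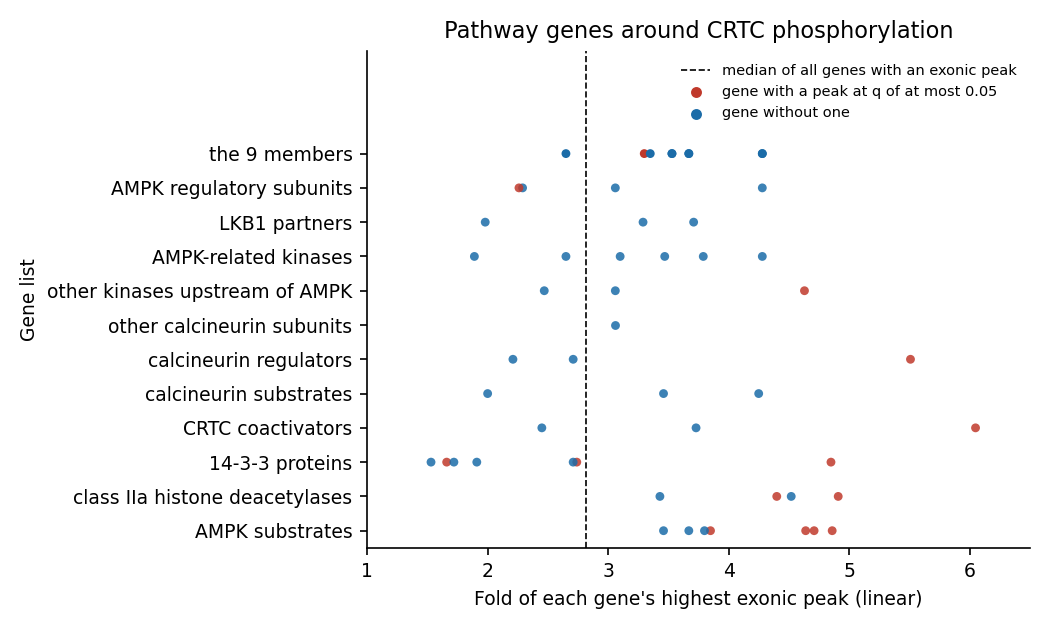
Fold (linear axis) of the highest exonic peak of each gene, for the 9 members and 11 pathway lists; red points are genes with a peak of any class at q of at most 0.05 and the dashed line is the median of all genes with an exonic peak, 2.82. The members lie between 2.65 and 4.28 with PPP3R1 in red, and CRTC3 is the point farthest right at 6.05.

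Markers of the labelled tissue were also looked up. Of 13 hepatocyte and liver cancer genes 9 had an exonic peak, and SERPINA1, KRT8, KRT18 and GPC3 had none. It was 1 of 6 blood genes and 3 of 6 stellate, endothelial and fibroblast genes, beside 67.7% of all genes with any peak. These lists also count genes without any peak. The q limit was reached by APOB of the first list and PECAM1 of the last, beside 11.3% of genes with a peak. A peak of at least 4-fold was found for 1 gene, of the last list. A list of enriched peaks does not measure expression, so these counts do not show the level of the markers.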

How the data were processed

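RIP and input libraries of 1 cell line were compared as the authors' peak caller did. The tools named in the submitters' processing notes are HISAT2 and MACS2, the build is hg38, and their versions and parameters were not found there. The deposited list gives each peak a fold, a linear ratio. It gives the −log10 of a p-value and of a q-value in columns whose deposited headers were damaged, identified by place and values, and a deposited score, which was not used. The lowest −log10 p was 1.30, and −log10 q was 0 for 88.8% of peaks. Per the file headers, width, summit and distance to the start are in bp.

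With Python 3.11.15 and scipy 1.17.1, RIP fragments and input levels were solved from fold (pseudocount 1) and p, taken as the Poisson probability of more fragments than observed. A whole number met both within 0.001 for 100% of peaks and was the only solution for 97.5% (180 of 183 member peaks). The solving step was tested only on data simulated from this same model. That cannot show whether the caller used the model or whether its control was the input library.

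The members and gene lists were chosen with earlier results of these data known. Named are all members, each list's genes at q of at most 0.05 or otherwise its highest, and genes without a peak. With 1 library per group nothing was tested across genes or samples. Symbols of all 9 members and 53 pathway genes matched an identifier. Peak sequences other than in promoter windows were not used here.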

Additional observations from a re-analysis of the deposited data

How the results depend on the processing

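Assignment decided most counts. With the assigned gene used for every peak, the 183 peaks became 85, the 9 members with an exonic peak 4, the exon share of 31.7% became 18.8%, and 0 members reached either limit. Where the annotated and the assigned gene had to agree, these were 71, 3, 4.23% and 0, and 8 instead of 13 pathway genes passed q of 0.05. Limits select peaks by construction. At q of at most 0.05 there remained 1 peak in 1 member (exon share 100%, median fold 3.30, 0 members at 4-fold) and 11 of the 44 pathway genes with an exonic peak. At a fold of at least 4 there were 2 peaks in 2 members (exon share 100%, median fold 4.28, 0 members at q of 0.05) and 13 pathway genes. With at least 5 fragments there were 41 peaks, with an exon share of 73.2%, a median fold of 2.16, and 8 pathway genes at q of 0.05. Up to 1 kb wide, the median fold was 1.85. Restricting to primary chromosomes, merging peaks within 100 bp (no peaks lie that close) and, chosen after the data were seen, position in the RefSeq span, both SIK1 identifiers and overlap with the assigned transcript left these results within 1.5 times or their interval. The highest folds of members stayed within their wide counting intervals in all 84 values that the alternatives could give. Under both gene assignments, however, they moved by over 1.5 times in SIK2 (3.53 to 1.94), PRKAA1 (4.28 to 2.76), PRKAA2 (3.67 to 1.91) and PPP3CA (3.67 to 1.84), and with at least 5 fragments in STK11 (3.35 to 2.16). With a pseudocount of 0, whole fragments met 2.75% of peaks instead of 100%. No paired analysis was possible because each group has 1 library. Depth limits every value: the median member summit held 1 fragment.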
